A study of Mus musculus with 9 samples.

Results

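Interleukin-1 family cytokines and the proteins that process and restrain them were followed in mouse dendritic cells given bacterial lipopolysaccharide (LPS), with and without a hairpin against the histone demethylase JmjD2d. The set is 10 genes of 19938 measured: the cytokines Il1a, Il1b, Il18 and Il33, the antagonist Il1rn, the decoys Il1r2 and Il18bp, and the processing genes Casp1, Casp4 and Pycard. They were chosen by symbol, and each is represented by a probe set that names no other gene. All 10 have 1 such probe set. The samples were 9 arrays in 3 groups of 3: JmjD2d-knockdown cells 4 h after 100 ng/ml LPS, wild-type cells 4 h after 100 ng/ml LPS, and unstimulated wild-type cells. All cells were grown from bone marrow progenitors, which were expanded with 20 ng/ml each of IL-3, IL-6 and SCF, and were differentiated over 8 days, first in 4% GM-CSF supernatant with 5 ng/ml SCF for 4 days and then without SCF for 4 days. Knockdown cells carried a hairpin against JmjD2d delivered by the retroviral vector pSir-delta U6CHisD and were selected in 2 mM histidinol, whereas wild-type cells were untransduced. The hairpin, the infection and the selection therefore cannot be told apart, and neither a control hairpin nor unstimulated knockdown cells were analysed here.

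IL-1 alpha and IL-1 beta both signal through the receptor IL-1R1 and drive fever, neutrophil recruitment and T cell priming. IL-1 beta and IL-18 are made as inactive precursors and are cut to their active forms by caspase-1, which is recruited by the adaptor ASC (the product of Pycard) to inflammasomes, protein platforms assembled by sensors such as NLRP3. In macrophages and dendritic cells LPS is the classical priming signal that raises Il1b mRNA before an inflammasome is triggered. IL-1 receptor antagonist (Il1rn) occupies the receptor without signalling, Il1r2 is a decoy receptor for IL-1, and Il18bp binds and neutralises IL-18. The arrays measure mRNA, so they say nothing of precursor cleavage or secretion.

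The values are log2 RMA values, so a difference of 1 is a doubling. Across genes, replicate arrays had correlations of 0.985 to 0.997. Kdm4d, which encodes JmjD2d, read 7.43, 7.11 and 7.40 in knockdown cells after LPS (replicates 1 to 3) and 7.79, 7.54 and 7.74 in wild-type cells after LPS, a log2 difference of -0.37 (SE 0.13) that did not pass the test (limma adjusted p = 0.278). Dendritic cell markers (12 genes) averaged 7.91 to 8.72 in knockdown cells after LPS, 8.83 to 9.55 in wild-type cells after LPS and 8.67 to 9.56 in unstimulated wild-type cells. Macrophage markers (10 genes) averaged 11.49 to 12.11, 11.61 to 12.06 and 11.56 to 12.16 in the same groups. Mast cell and basophil markers (12 genes) averaged 6.34 to 6.67, 6.97 to 7.30 and 6.66 to 6.88. Only 3 of these 12 (Kit, Hdc and Gata2) averaged above 7.07 over the arrays, the cut for dim genes. Of the 12 dendritic cell markers, 9 did. Whether mast cells or basophils were present was not tested. In whole cultures such as these, fewer cells of a type and less RNA per cell cannot be told apart. Arrays with the same replicate number deviated together, so a fit with the number as a block, called the paired fit, is given where it changes a call.

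The 250 bases before an annotated transcript start are shown for 4 members. They are 3 that rose with LPS (Il1a, Il1b and Casp4) and Il18, which differed between knockdown and wild-type cells. The part of these sequences in the patterns was not tested. The Il1a and Il1b windows reach into the span given for the gene, which on the minus strand begins at 129310186 and 129371164. They are RefSeq sequences of GRCm38.p6, written 5′ to 3′ on the gene's strand, and capitals mark matches to the motifs searched.
Il1a (chr2:129309973-129310222, minus strand): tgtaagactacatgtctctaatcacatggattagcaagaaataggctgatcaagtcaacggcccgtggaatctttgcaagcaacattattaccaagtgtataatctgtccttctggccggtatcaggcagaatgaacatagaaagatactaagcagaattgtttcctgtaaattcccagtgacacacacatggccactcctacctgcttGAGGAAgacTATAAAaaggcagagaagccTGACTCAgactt
Il1b (chr2:129371140-129371389, minus strand): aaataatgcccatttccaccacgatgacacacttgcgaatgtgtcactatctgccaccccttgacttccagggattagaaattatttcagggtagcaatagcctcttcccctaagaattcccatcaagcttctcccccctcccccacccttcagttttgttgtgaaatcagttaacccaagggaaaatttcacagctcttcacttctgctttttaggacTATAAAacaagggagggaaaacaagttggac
Casp4 (chr9:5308599-5308848, plus strand): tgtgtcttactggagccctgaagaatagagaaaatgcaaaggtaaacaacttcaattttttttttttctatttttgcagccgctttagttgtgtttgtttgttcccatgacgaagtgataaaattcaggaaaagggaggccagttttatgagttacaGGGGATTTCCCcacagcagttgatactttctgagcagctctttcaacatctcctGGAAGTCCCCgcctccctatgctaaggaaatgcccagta
Il18 (chr9:50554450-50554699, plus strand): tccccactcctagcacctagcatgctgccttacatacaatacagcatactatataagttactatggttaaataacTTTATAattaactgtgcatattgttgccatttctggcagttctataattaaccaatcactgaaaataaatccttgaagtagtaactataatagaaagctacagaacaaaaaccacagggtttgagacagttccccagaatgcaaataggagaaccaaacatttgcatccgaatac
Motifs were searched on both strands as GGGRNNYYCC (NF-kB consensus), GAAANNGAA (interferon-stimulated response element), TGANTCA (AP-1), TTGCNNAA (C/EBP), GAGGAA (core of the PU.1 site) and TATAAA (the TATA box). R is A or G, Y is C or T, and N is any base. The NF-kB letters were chosen after other letters had matched no member or only Il1r2. The Casp4 matches therefore cannot be weighed against the share of all windows. Marked matches overlap only in Casp4, where a pair of forward NF-kB matches is shifted by a base. Il1a and Il1b both hold a forward TATA box, starting 32 and 31 bases before the start, a place (35 to 25 bases before it) where 1.75% of 32851 promoter windows hold one. Il18 holds TATAAA only on the reverse strand, 175 to 170 bases before the start. Casp4 holds no TATAAA but holds the NF-kB consensus forward at 93 to 84 and 92 to 83 bases and on the reverse strand at 39 to 30 bases before the start. In Il1a the TATA box lies between GAGGAA at 41 to 36 bases and TGACTCA at 12 to 6 bases before the start. All 10 members were in the promoter table. In the first window listed for each, TATAAA was found in 4 of the 10 (12.4% of all windows), GAGGAA in 3 (23.3%), TGANTCA in 2 (6.75%) and TTGCNNAA in 2 (9.56%). The NF-kB consensus was found in 1, Casp4 (7.25% of all windows), and GAAANNGAA in 0 of the 10 (7.13%).

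The first comparison asks how the family responded to LPS in wild-type cells, and the second, which the series title names, how it differed between knockdown and wild-type cells after LPS. With LPS, Il1b, Il1a and Casp4 rose in wild-type cells by 18.9-fold, 6.43-fold and 3.16-fold. After LPS, Il18 was 3.11-fold higher in knockdown than in wild-type cells. Il1a, Il1b and Il1rn differed there by log2 values between -0.01 and 0.09, and their 3 values overlapped between the groups.

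**Figure D1:**
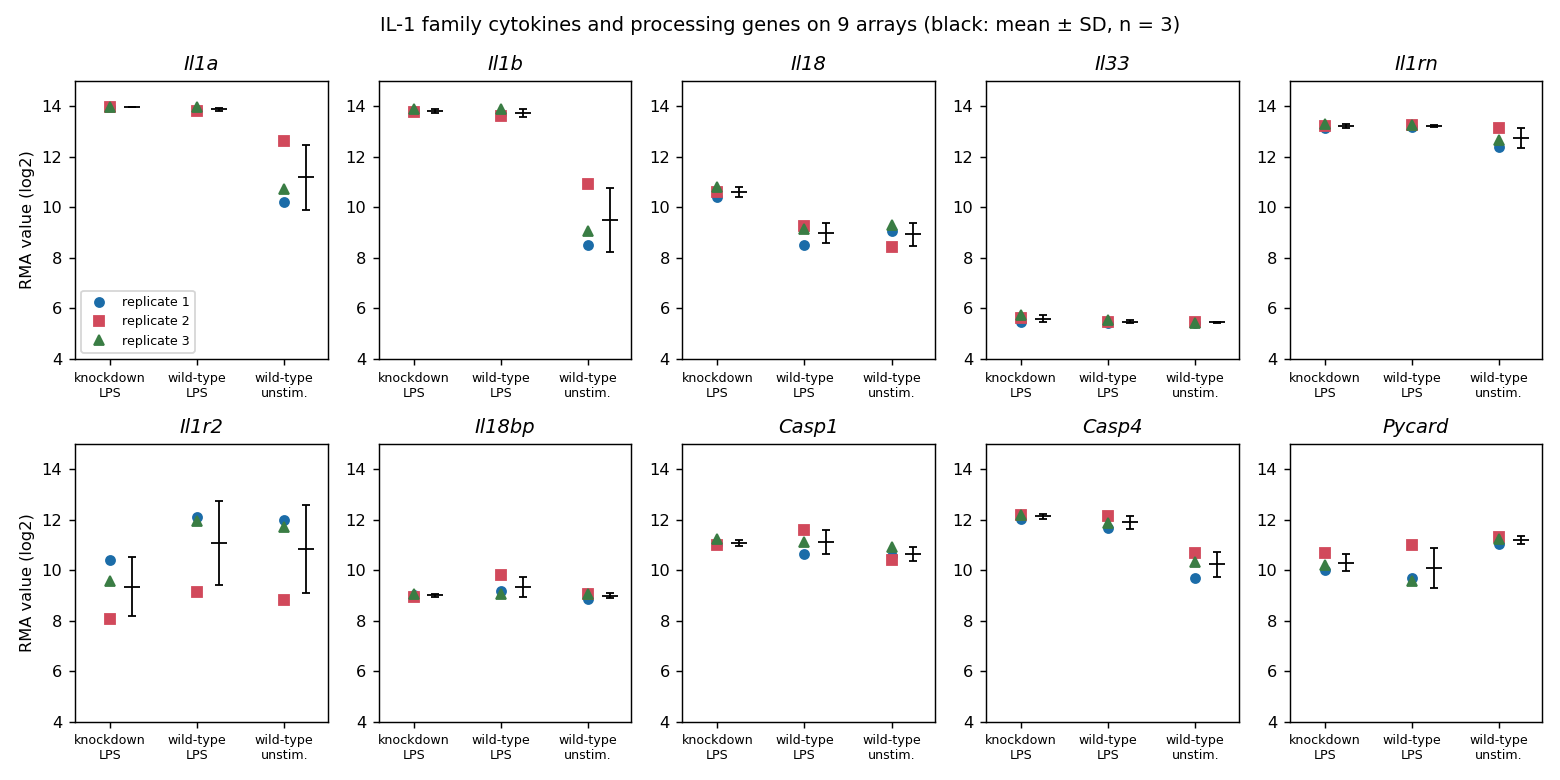
RMA values (log2) of the 10 genes on the 9 arrays, in panels by gene. Points are arrays, shaped and coloured by replicate number, and black bars are the mean ± SD of 3. Il1a, Il1b and Casp4 are higher on all 6 LPS arrays than on the unstimulated arrays, and Il18 is higher on the 3 knockdown arrays than on the 6 wild-type arrays.

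Il1b, the main secreted IL-1 of myeloid cells, read 13.80, 13.77 and 13.89 in knockdown cells after LPS and 13.69, 13.60 and 13.89 in wild-type cells after LPS, against 8.50, 10.91 and 9.06 in unstimulated wild-type cells. Every LPS-treated array lay above every unstimulated array. The rise in wild-type cells was a log2 difference of 4.24 (SE 0.51, n = 3 against 3, limma adjusted p = 0.00242). The knockdown group was 4.33 above unstimulated wild-type cells (SE 0.51, adjusted p = 0.00202), a comparison that shares its unstimulated arrays with the first. Between knockdown and wild-type cells after LPS the difference was 0.09 (95% confidence interval -1.08 to 1.26, adjusted p = 0.955). That interval uses the spread of all 9 arrays, in which the unstimulated arrays had an SD of 1.26. With the 6 LPS arrays alone it ran from -0.13 to 0.31.

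Il1a, whose product is active without caspase-1 cleavage, read 13.96, 13.97 and 13.98 in knockdown cells after LPS and 13.85, 13.81 and 13.96 in wild-type cells after LPS, against 10.22, 12.64 and 10.71 in unstimulated wild-type cells. The 6 LPS arrays again lay above the unstimulated ones. In wild-type cells the log2 difference was 2.68 (SE 0.51, adjusted p = 0.0147). The call was lost without wild-type LPS replicate 1 or 3 or without unstimulated replicate 3 (adjusted p from 0.0550 to 0.0633). The knockdown difference after LPS was 0.09 (interval -1.08 to 1.27, and -0.06 to 0.24 with the 6 LPS arrays alone). The highest value of any deposited probe set on any array, whether or not it names a single gene, was 14.66.

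Il18, the other caspase-1 substrate and an inducer of interferon gamma, read 10.42, 10.59 and 10.82 in knockdown cells after LPS and 8.52, 9.25 and 9.16 in wild-type cells after LPS, against 9.08, 8.42 and 9.31 in unstimulated wild-type cells. The 3 knockdown arrays lay above all 6 wild-type arrays, and the wild-type groups overlapped. With LPS in wild-type cells the log2 difference was 0.04 (SE 0.26, interval -0.56 to 0.64, adjusted p = 0.932), with 1 of 3 replicate numbers higher. Knockdown cells after LPS exceeded wild-type cells after LPS by 1.64 (interval 1.04 to 2.23, adjusted p = 0.0383), and by 1.91, 1.35 and 1.66 within replicates 1, 2 and 3. They exceeded unstimulated wild-type cells by 1.67 (SE 0.26, adjusted p = 0.00586). The knockdown call was close to the threshold. It was lost with the 6 LPS arrays alone (adjusted p = 0.0685) and when any 1 of 7 arrays was left out, the 3 knockdown arrays and replicates 1 and 3 of both wild-type groups (0.0533 to 0.131). The difference itself stayed between 1.41 and 1.78 in all 19 alternatives. Of the 12 dendritic cell markers, whose averages are given above, 0 passed the test between knockdown and wild-type cells by limma. At an unadjusted p under 0.05, 5 were lower (5.79% of all genes), and in the paired fit 5 were lower (1.24%). Of the 10 macrophage markers only Spic passed by limma, higher in knockdown cells (2.74, SE 0.44), as 0.401% of all genes were. Among these 10, 2 were higher (7.32% of all genes) and 1 was lower (5.79%) at an unadjusted p under 0.05. The median log2 difference of the macrophage markers was 0.01. The part of the dendritic cell and macrophage markers in the Il18 result was not tested.

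Il33, an alarmin stored in the nucleus mainly of barrier tissue cells, was the only member below the 40th percentile of gene means. It read 5.46 to 5.74 in knockdown cells after LPS, 5.44 to 5.53 in wild-type cells after LPS and 5.44 to 5.47 in unstimulated wild-type cells. The groups overlapped, and the log2 difference was 0.12 for knockdown against wild-type cells (adjusted p = 0.56) and 0.03 for LPS against no stimulation (adjusted p = 0.794).

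Among the restraints on IL-1 and IL-18, Il1rn read 13.16, 13.23 and 13.30 in knockdown cells after LPS and 13.19, 13.26 and 13.26 in wild-type cells after LPS, against 12.37, 13.15 and 12.68 in unstimulated wild-type cells. All LPS arrays lay above the unstimulated ones, replicate 2 by the least. The LPS difference in wild-type cells was 0.50 (SE 0.17, adjusted p = 0.0952), and 0.71 (adjusted p = 0.00504) without unstimulated replicate 2. The knockdown difference was -0.01 (interval -0.39 to 0.37), a sign that turned under some settings.

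Il1r2 had the widest spread within each LPS group. It read 10.38, 8.07 and 9.56 in knockdown cells after LPS and 12.11, 9.14 and 11.95 in wild-type cells after LPS, against 11.99, 8.82 and 11.69 in unstimulated wild-type cells. Replicate 2 was the lowest of each group, and the groups overlapped. Within each number, however, the knockdown array was below the wild-type LPS array, by log2 differences of -1.73, -1.07 and -2.39. The mean difference of -1.73 did not pass the test (SE 1.08, adjusted p = 0.548) and passed it in the paired fit (SE 0.25, adjusted p = 0.025). The LPS differences within wild-type cells were 0.12, 0.32 and 0.26 (mean 0.23, adjusted p = 0.903). Il1r2 is also carried by neutrophils, whose markers (10 genes) averaged 9.54, 7.76 and 9.36 in knockdown cells after LPS, 10.45, 8.59 and 9.62 in wild-type cells after LPS and 9.75, 8.18 and 8.44 in unstimulated wild-type cells. Replicate 2 was the lowest of each group for these markers too, and each knockdown array averaged less than its same-numbered wild-type LPS array. The latter also held for the dendritic cell markers and for the mast cell and basophil markers. Against unstimulated cells, the neutrophil markers averaged less on knockdown replicates 1 and 2 but more on replicate 3 (9.36 against 8.44). Il1r2 was lower there in each replicate number. None of the 10 passed the test between knockdown and wild-type cells by limma. At an unadjusted p under 0.05, 3 were lower (5.79% of all genes), and in the paired fit 1 was lower (1.24%). The part of neutrophils in the Il1r2 values was not tested.

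Il18bp read 8.92 to 9.07 in knockdown cells after LPS and 9.19, 9.79 and 9.05 in wild-type cells after LPS, against 8.87 to 9.05 in unstimulated wild-type cells. The value of wild-type LPS replicate 2 stood above the other 8. The difference was -0.35 for knockdown against wild-type cells (SE 0.17, adjusted p = 0.449) and 0.35 for LPS in wild-type cells (adjusted p = 0.236). Without that array the knockdown difference was -0.12 (adjusted p = 0.432) and the LPS difference 0.13.

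Of the processing genes, Casp4 encodes caspase-11, which in mice binds cytosolic LPS and cleaves gasdermin D. It read 12.01, 12.20 and 12.16 in knockdown cells after LPS and 11.65, 12.15 and 11.86 in wild-type cells after LPS, against 9.70, 10.66 and 10.32 in unstimulated wild-type cells. All LPS arrays lay above the unstimulated ones. The rise in wild-type cells was 1.66 (SE 0.23, adjusted p = 0.00416), and between 1.48 and 1.95 within each replicate number. The knockdown difference was 0.24 (interval -0.28 to 0.76, adjusted p = 0.697). Casp1 is its neighbour in the genome (Casp1 at chr9:5298517-5307281 and Casp4 at chr9:5308849-5336791, GRCm38.p6). Casp1 read 10.98 to 11.23 in knockdown cells after LPS, 10.65 to 11.59 in wild-type cells after LPS and 10.40 to 10.92 in unstimulated wild-type cells. Its LPS difference was 0.49 (interval -0.03 to 1.01, adjusted p = 0.216) and its knockdown difference -0.04 (interval -0.56 to 0.48). Whether the caspases differed in their response was not tested.

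Pycard, the inflammasome adaptor gene, was lower on every LPS array than on every unstimulated array. It read 10.01, 10.66 and 10.20 in knockdown cells after LPS and 9.68, 10.99 and 9.58 in wild-type cells after LPS, against 11.01, 11.30 and 11.24 in unstimulated wild-type cells. The difference in wild-type cells was -1.10 (SE 0.35, adjusted p = 0.0854), which passed in the paired fit (adjusted p = 0.0243) and without wild-type LPS replicate 2 (-1.56, adjusted p = 0.00256). Knockdown cells after LPS were at -0.90 from unstimulated wild-type cells (adjusted p = 0.165, paired 0.0478), and at 0.21 from wild-type cells after LPS (interval -0.60 to 1.01, adjusted p = 0.837). Single arrays moved this last value, to 0.66 without wild-type LPS replicate 2, 0.35 without knockdown replicate 1, 0.02 without knockdown replicate 2, 0.01 without wild-type LPS replicate 1 and -0.04 without wild-type LPS replicate 3.

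**Figure D2:**
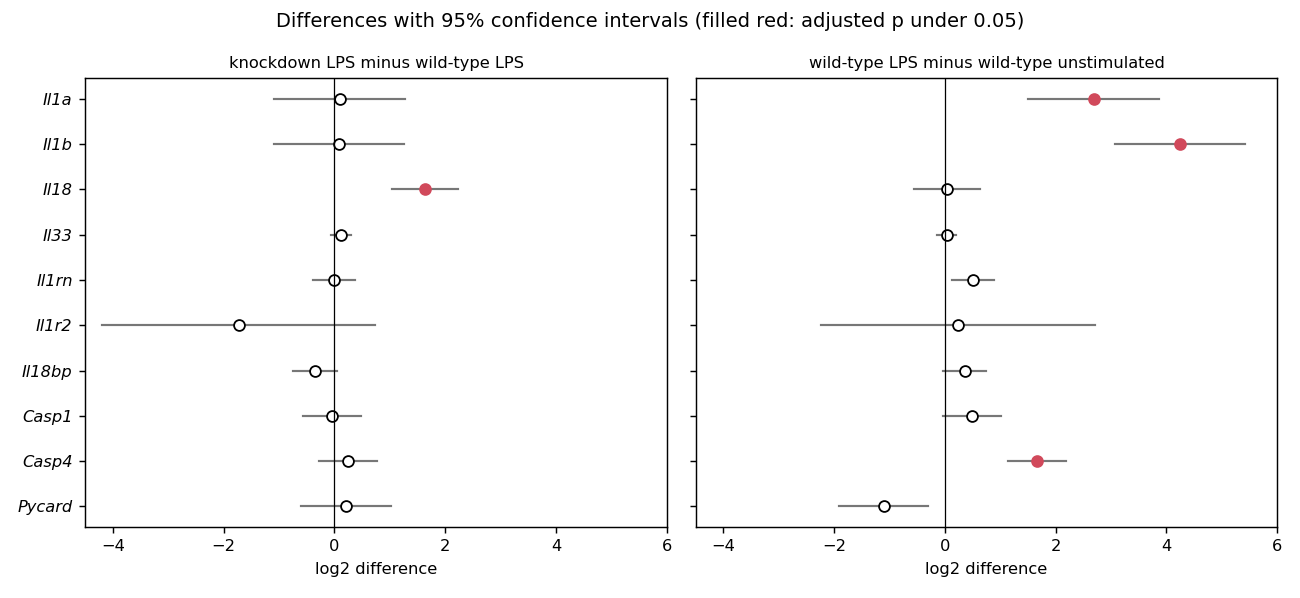
Log2 differences of the 10 genes with 95% confidence intervals from the fit to all 9 arrays, knockdown minus wild-type after LPS on the left and LPS minus unstimulated in wild-type cells on the right. Filled points passed the adjusted test: Il18 on the left, and Il1a, Il1b and Casp4 on the right. The widest intervals are those of Il1r2.

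Counted together, 3 of the 10 members rose with LPS in wild-type cells, where 3.99% of all genes rose, and 0 fell by limma, where 6.86% fell. At an unadjusted p under 0.05, 4 were higher (10.3% of all genes) and 1 was lower (16%). That 1 was Pycard, which was also lower in the paired fit. The paired fit called 5.19% of all genes higher, 3 members among them, and 9.57% lower. The median log2 difference of the members was 0.42, against 0.04 over all genes. Between knockdown and wild-type cells after LPS, 1 of 10 was higher (0.401% of all genes) and 0 were lower by limma (0.361%). At an unadjusted p under 0.05 there were 1 higher (7.32% of all genes) and 0 lower (5.79%). The paired fit called 1.51% of all genes higher and 1.24% lower, and of the members Il18 higher and Il1r2 lower. The members' median was 0.09, against -0.03 over all genes. Between knockdown cells after LPS and unstimulated wild-type cells, 4 were higher (4.23% of all genes), Il1a, Il1b, Il18 and Casp4. None was lower there by limma (6.64%). At an unadjusted p under 0.05, 5 were higher (9.24% of all genes) and 1, Pycard, was lower (13.8%). In the paired fit, which called 5.62% of all genes higher and 8.65% lower, 4 were higher, and Il1r2 and Pycard were lower. The 3 values of the groups did not overlap for 5 members with LPS (29.3% of all genes) for 1 between knockdown and wild-type cells (16.6%) and for 7 between knockdown cells after LPS and unstimulated wild-type cells (27.3%).

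The arrays numbered 2 stood apart for several members. Unstimulated replicate 2 was the highest of its group for Il1a, Il1b, Il1rn, Casp4 and Pycard and the lowest for Il18, Casp1 and Il1r2. The LPS differences within replicates 1, 2 and 3 of wild-type cells were 5.19, 2.69 and 4.83 for Il1b, and 3.63, 1.18 and 3.25 for Il1a. Those of Pycard were -1.34, -0.31 and -1.66. For Casp1 they were 0.08, 1.18 and 0.20, so here replicate 2 had the larger difference. Without the arrays numbered 2, the LPS difference was 5.01 for Il1b, 3.44 for Il1a and -1.50 for Pycard (adjusted p = 0.000678), and the knockdown difference was 1.78 for Il18 and -2.06 for Il1r2 (adjusted p = 0.0263). This setting was chosen after the data were seen.

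**Figure D3:**
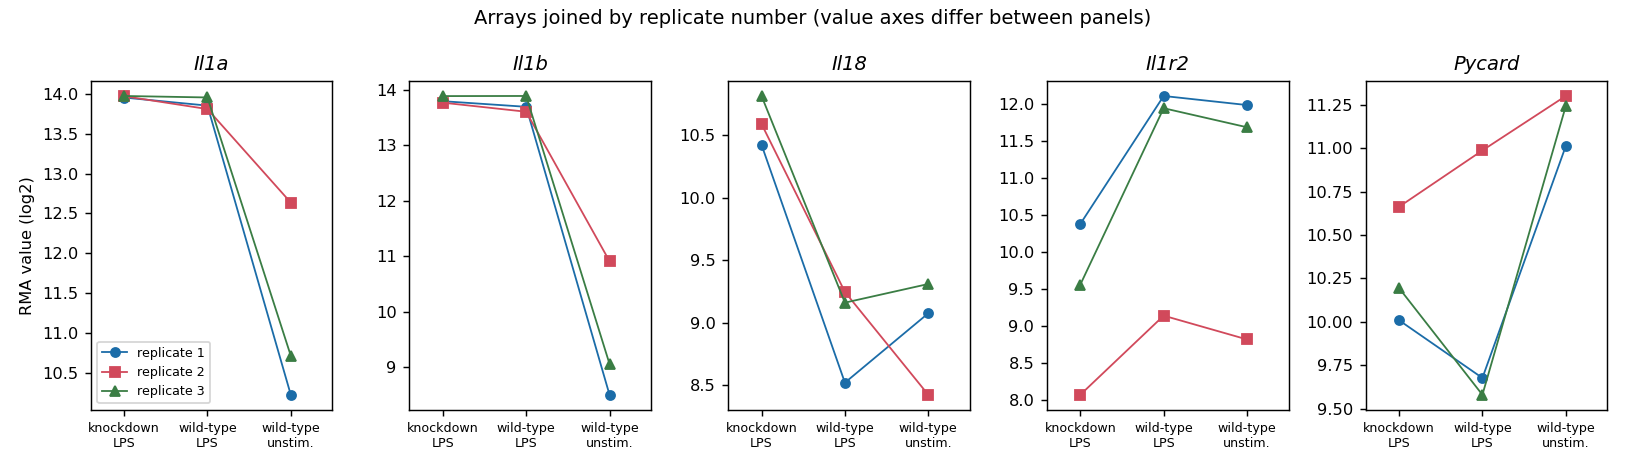
RMA values (log2) of 5 genes, with arrays of the same replicate number joined by a line. The value axes differ between panels. For Il18 and Il1r2 the knockdown array lies on 1 side of the wild-type LPS array in all 3 numbers, and unstimulated replicate 2 is the highest of its group for Il1a and Il1b.

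Other genes of the pathway were taken from 5 lists, whose counts stand against the shares of all genes given above for each comparison. Of 5 measured ligands named as IL-1 family members 5, 6, 8, 9 and 10, 2 rose with LPS in wild-type cells and 0 fell, and 0 changed between knockdown and wild-type cells. Il1f6, the IL-36 alpha gene, read 10.58, 9.03 and 11.28 in knockdown cells after LPS and 11.21, 10.45 and 10.40 in wild-type cells after LPS, against 6.52, 6.90 and 6.30 in unstimulated wild-type cells. It rose in wild-type cells (log2 difference 4.11, SE 0.51, adjusted p = 0.00281). Its unstimulated values lay below the 40th percentile of gene means (7.07), so no fold is given. Its knockdown difference was -0.39 (adjusted p = 0.787). Il1f9, the IL-36 gamma gene, rose 4.11-fold (2.04, SE 0.33, adjusted p = 0.00802), with a knockdown difference of 0.17. Il1f5, the IL-36 receptor antagonist gene, and Il1f8, the IL-36 beta gene, differed by -0.07 and -0.08 between knockdown and wild-type cells.

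Among 7 measured receptors, 1 rose with LPS and 0 fell by limma (1 was lower at an unadjusted p under 0.05). It was Il1rap, the co-receptor shared by IL-1, IL-33 and IL-36, which read 9.05, 9.52 and 9.11 in knockdown cells after LPS and 9.78, 10.23 and 9.84 in wild-type cells after LPS, against 9.23, 9.47 and 9.16 in unstimulated wild-type cells. Its LPS difference was 0.66 (SE 0.16, adjusted p = 0.0355). This count of 1 became 0 in 7 of 19 alternatives, with arrays centred on their median and without knockdown replicate 3, unstimulated replicate 1 or 3, or any 1 wild-type LPS array. Its knockdown difference was -0.73 (SE 0.16, adjusted p = 0.0895), and this passed in the paired fit (adjusted p = 0.0103), where it was the only receptor called. The knockdown arrays did not overlap the wild-type LPS arrays. Il1rl2, the IL-36 receptor, and Il18rap, a subunit of the IL-18 receptor, had knockdown differences of -1.02 and -0.46 (adjusted p = 0.401 and 0.589). Il1rl2 averaged 6.41 over the arrays, below the 40th percentile. Il1r1 and Il1rl1 were not analysed here.

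Of 21 measured inflammasome sensors, partners and substrates, 3 rose with LPS in wild-type cells and 5 fell (4 and 6 in the paired fit). The 5 became 1 without wild-type LPS replicate 3, 2 without unstimulated replicate 3, 3 without replicate 1 of either wild-type group, 10 without the arrays numbered 2 and 11 with array weights. The 3 became 6 without knockdown replicate 2 or the arrays numbered 2, and 7 with array weights. The sensor genes Mefv (pyrin), Nlrp3 and Nlrc4 rose by 2.40 (SE 0.19, adjusted p = 0.000507), 1.74 and 0.99 (SE 0.08, adjusted p = 0.000606). The 5 that fell, named after their values were seen, were the sensor gene Nlrp1b (-1.41), Nlrp10 (-1.03), the ATP-gated channel P2rx7 (-0.75), the pore-forming Gsdme (-0.62) and the NLRP3 partner Nek7 (-0.35). In the knockdown comparison 0 of 21 passed by limma, and at an unadjusted p under 0.05 there were 1 higher and 5 lower, where 7.32% and 5.79% of all genes were. Gsdmd, the pore-forming substrate of caspase-1 and caspase-11, had a difference of -0.68 (SE 0.15, adjusted p = 0.091) and was the 1 gene of the list called in the paired fit (adjusted p = 0.0285). Its values were 8.72, 8.98 and 8.46 in knockdown cells after LPS and 9.19, 9.67 and 9.35 in wild-type cells after LPS. Txnip and P2rx7 were at -0.49 and -0.53 (adjusted p = 0.085 and 0.138).

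Of 14 measured genes of IL-1 receptor and Toll-like receptor signalling, 4 rose with LPS and 1 fell (5 and 1 in the paired fit). The 4 ranged from 3 to 5 when arrays were left out and was 10 with array weights. The 1 became 0 without knockdown replicate 1, wild-type LPS replicate 1 or 3 or unstimulated replicate 1 or 2, and also with arrays centred on their median or a trended, robust variance. It became 2 without wild-type LPS replicate 2, without the arrays numbered 2 or with array weights. Peli1, a ubiquitin ligase acting on IRAK kinases, rose by 2.11 (SE 0.13, adjusted p = 0.00019), the kinase gene Irak2 by 1.13 (SE 0.13) and Ikbkb, the IKK beta gene, by 0.56 (SE 0.07). Irak3, a brake on this pathway, rose by 1.21 and Irak1 fell by 0.42, both named after their values were seen. Between knockdown and wild-type cells 0 of 14 passed by limma or in the paired fit, with 1 higher (Mapk14, 0.32) and 1 lower (Ikbkb, -0.39, adjusted p = 0.0578) at an unadjusted p under 0.05. Of 10 other proteases and serpins, 1 rose with LPS and 0 fell by limma (at an unadjusted p under 0.05, 3 were higher and 2 lower, and in the paired fit 1 was higher and 1 lower). It was Serpinb9, an intracellular protease inhibitor, which read 9.55, 8.88 and 8.78 in knockdown cells after LPS and 10.99, 10.09 and 10.82 in wild-type cells after LPS, against 8.78, 8.66 and 9.08 in unstimulated wild-type cells. It rose by 1.79 with LPS (SE 0.27, adjusted p = 0.00605), and its knockdown difference was -1.56 (SE 0.27, adjusted p = 0.0503, paired 0.0215). In this list 0 of 10 passed between knockdown and wild-type cells by limma, 5 were lower at an unadjusted p under 0.05 (5.79% of all genes), and the paired fit called Serpinb9. Serpinb1a, named after its values were seen, averaged higher in knockdown cells, with overlap. It read 9.53, 11.72 and 9.98 in knockdown cells after LPS and 9.66, 7.91 and 8.91 in wild-type cells after LPS. The list holds the neutrophil granule genes Elane, Prtn3, Ctsg and Mmp9, and the neutrophil marker values are those given with Il1r2. Of the 12 mast cell and basophil markers 0 passed by limma in this comparison. Lower were 5 at an unadjusted p under 0.05 (5.79% of all genes) and 3 in the paired fit (1.24%). Only 3 of the 12 averaged above the cut for dim genes (7.07). The part of neutrophils, mast cells and basophils in the list was not tested.

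**Figure D4:**
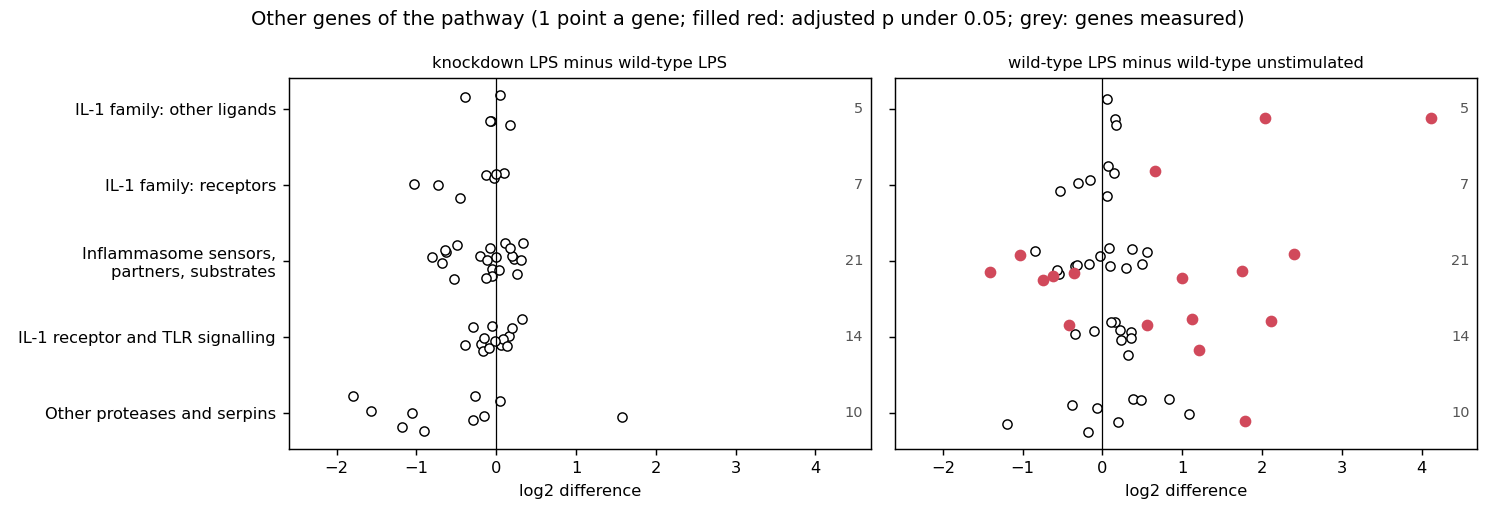
Log2 differences of the other pathway genes by list, 1 point a gene, knockdown minus wild-type after LPS on the left and LPS minus unstimulated in wild-type cells on the right. Filled points passed the adjusted test and grey numbers are genes measured. There are no filled points on the left, and 17 on the right.

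Over the 9 arrays, the genes whose values followed Il1b most closely among 1438 with an SD of at least 0.5 were Cxcl2, a neutrophil chemokine (Pearson r = 0.997), Dram1, a regulator of autophagy (0.994), and Ell2, a transcription elongation factor (0.992). Their LPS differences in wild-type cells were 4.94, 0.95 and 1.87, and their knockdown differences -0.01, 0.10 and 0.12. For Il18 they were Myo6, a myosin motor (0.968), Agmo, an enzyme of ether lipid breakdown (0.941), and Fbxo36 (0.930). Their knockdown differences were 1.65, 1.61 and 1.33, and their LPS differences -0.16, 0.02 and -0.31. All 9 values of Agmo lay below the 40th percentile of gene means. The arrays share groups and replicate numbers, so these values describe likeness on 9 arrays and carry no test.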

How the data were processed

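RNA of 9 dendritic cell cultures was hybridised to Affymetrix mouse gene arrays. The deposited values are log2 values made by the authors with RMA, per the submitters' processing notes, with no version. Array medians were 7.217 to 7.315, and no further normalization was applied. Of 35556 probe sets, 21789 name a single gene in the platform table (21698 of them matched to RefSeq, GRCm38.p6), and the brightest per gene gave 19938 genes. A mean per group was fitted with limma 3.58.1 (R 4.3.3) to all 9 arrays, with two-sided empirical Bayes tests and Benjamini-Hochberg adjustment over all genes, and changes are those with an adjusted p under 0.05. The design text speaks of independent cultures. Deviations from the group means correlated by 0.14 to 0.48 in all 9 pairs of arrays of the same number (-0.41 to 0.25 in the 18 others), and this was read as pairing by number. The fit was tested on simulated data. Named by rule beyond the members were Kdm4d, up to 3 genes per list with the smallest p in each of the first 2 comparisons, and the 3 genes most like Il1b and Il18. Other list genes and cell type markers were named outside this rule, some after their values were seen. The NF-kB and interferon response letters were chosen after earlier letters had been searched (other NF-kB letters matched no member or only Il1r2, a longer interferon response form none). The members, lists and markers were chosen with earlier results of these data known. The number of arrays limits the precision.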

Additional observations from a re-analysis of the deposited data

How the results depend on the processing

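Each value was recomputed under 18 other settings and 1 added after seeing the data (without the arrays numbered 2). Il1b and Casp4 passed the LPS test in all 19. The members higher with LPS numbered 3, 4 with array weights (with Il1rn), and 2 to 4 when arrays were left out. Those lower numbered 0, against 1 (Pycard) with the replicate block and with array weights, and 0 to 1 when arrays were left out. Between knockdown and wild-type cells, the 1 higher member (Il18) became 0 with only the 6 arrays compared, and 0 to 1 when arrays were left out. The 0 lower became 1 (Il1r2) with the replicate block, and 0 to 1 when arrays were left out. Between knockdown cells and unstimulated wild-type cells, the 4 higher ranged from 3 to 5. The 0 lower became 2 with the replicate block, 1 with the 6 arrays and with array weights, and 0 to 2 when arrays were left out. The replicate block changed no other call of a member. Array weights called 4155 genes higher and 4302 lower with LPS, against 796 and 1368, and between knockdown and wild-type cells 2058 and 2225, against 80 and 72. The replicate block called 301 and 247 there. The cause of these shifts was not tested. No called value changed sign. Il33 has no value in the fit without dim genes.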
